A study of Mus musculus with 18 samples.

Results

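The mitochondrial genome of the mouse encodes 37 RNAs, and all 37 had a row in the table of 43432 genes measured by RNA-seq in primary T cells of C57BL/6 mice. Members were taken by name, as every gene whose symbol starts with mt-. They comprised 13 mRNAs, 2 ribosomal RNAs and 22 transfer RNAs. A mean of at least 50 normalised reads over the libraries was reached by 10 members, which are described one by one, and the other 27 were only counted. Th2 cells, the CD4 subset producing type 2 cytokines, and cytotoxic CD8 T cells had been activated with plate-bound anti-CD3 and anti-CD28 and cultured for 5 days per the labels, the study's methods adding a move to uncoated dishes in between. Th2 cells received IL-4, anti-Ifn-gamma and IL-2, and CD8 cells IL-12 and IL-2. The labels give 4 h before harvest as the time when cells were left resting or stimulated with PMA and ionomycin, which mimic antigen receptor signalling. They also state for every sample that cells were crosslinked with 8000 mJ of UV light at 254 nm. Each of these 4 conditions was sequenced once without and once with actinomycin D, a DNA-binding drug that blocks RNA synthesis, giving 8 libraries and 1 library per condition. The study's methods give a dose and several durations of the drug, added after stimulation. They state that cells so treated were also collected for RNA-seq, without the duration for these libraries. The same series holds 10 GCLiPP libraries (6 of Th2 and 4 of CD8 cells), which map RNA bound by protein. Their pooled list of 27729 peaks, called in 3′ UTRs, held 0 peaks on the mitochondrial chromosome.

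Mitochondrial DNA is transcribed from both strands into long precursors by the polymerase Polrmt with its partners Tfam and Tfb2m. The tRNAs lie between the other genes and are cut out of the precursor, which releases the mRNAs and rRNAs. Most mitochondrial mRNAs then receive a short poly(A) tail, whereas the light-strand transcript of mt-Nd6 is the known exception. The mRNAs encode core subunits of complexes I, III, IV and V of the respiratory chain, and mt-Rnr1 and mt-Rnr2 are the 12S and 16S rRNAs of the mitochondrial ribosome.

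The sequences that bear on what could be counted are shown first. A tRNA joins the end of the 16S rRNA to the start of mt-Nd1 with no base between them. In mm10 this stretch is chrM:2646-2780 on the plus strand. It is shown with the last 30 bases of mt-Rnr2, mt-Tl1 (the tRNA for leucine 1) in capitals, and the first 30 bases of mt-Nd1. The stretch was chosen because mt-Rnr2 rose with actinomycin D, whereas mt-Tl1 and mt-Nd1 fell.
mt-Rnr2, mt-Tl1 and mt-Nd1: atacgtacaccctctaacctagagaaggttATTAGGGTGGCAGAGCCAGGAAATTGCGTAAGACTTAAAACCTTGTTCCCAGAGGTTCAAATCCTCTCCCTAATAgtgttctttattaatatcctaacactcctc
The table does not separate reads of a cut tRNA from reads of an uncut precursor.

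A run of 11 neighbouring members from mt-Ts1 to mt-Nd4l (MT, 6870 to 10173) held 6 mRNAs (mt-Co2, mt-Atp8, mt-Atp6, mt-Co3, mt-Nd3 and mt-Nd4l) and 5 tRNAs. Of these, 10 were listed at 0 in every library, and the run held 1 read in total, for mt-Tr in the Th2 resting library. The genes on either side, mt-Co1 and mt-Nd4, had means of 165431 and 20215 normalised reads. In the annotated transcripts of the mouse (GENCODE M21, 141767 transcripts scanned), 7 pseudogenes on chromosome 1 between 24611535 and 24616197, all on the minus strand, matched 7 mitochondrial mRNAs in the same order. Over 4137 aligned bases they differed by 1 base, and ends left out of the alignments were not compared. The copy of mt-Nd3 aligned only from its base 4 and that of mt-Co1 only from its base 10. Of the 6 gaps between consecutive copies, 5 had exactly the length of the matching gap on mitochondrial DNA and the remaining one was 1 base longer. The copies of mt-Co2 (Gm28661, 681 bases), mt-Atp6 (Gm10925, 678 bases), mt-Co3 (Gm28437, 783 bases), mt-Nd3 (Gm28438, 342 bases), mt-Nd4l (Gm10222, 294 bases) and mt-Nd4 (Gm28439, 876 bases) were identical to the member over their aligned length. The copies on chromosome 1 were themselves at or near 0, with 1.19 normalised reads as the highest value of any of them in any library. The first bases of mt-Co2 and of its copy are shown to make this concrete (mt-Co2 at chrM:7013-7072 on the plus strand, Gm28661 at chr1:24615506-24615565 on the minus strand). The only aligned stretch with a difference follows, where the base that differs is in capitals (mt-Co1 at chrM:6390-6449 on the plus strand, Gm29216 at chr1:24616129-24616188 on the minus strand).
mt-Co2: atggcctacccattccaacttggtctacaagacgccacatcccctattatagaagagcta
Gm28661: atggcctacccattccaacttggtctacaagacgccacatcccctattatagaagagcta
mt-Co1: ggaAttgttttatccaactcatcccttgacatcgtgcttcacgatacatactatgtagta
Gm29216: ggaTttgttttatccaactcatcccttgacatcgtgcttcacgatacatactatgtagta
That difference was A1066T, counted from 1 at the first base of mt-Co1, with the base of the member given first. Less exact copies on chromosome 2 did hold reads in all 8 libraries. Gm13341, 95.9% identical to mt-Co2, reached 21.9 normalised reads, and Gm13340, 97.6% identical to mt-Co1, reached 57.1. Whether reads that match several places were counted is not given in the sources used here, and the part of the copies in the values at 0 was not tested. mt-Atp8 and the 5 tRNAs of the run shared no word of 50 bases with any other annotated transcript, and the sequence between the annotated copies was not analysed here.

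Such copies also overlapped members with values, chiefly mt-Co1 and mt-Nd4. Of the words of 50 bases in mt-Co1, 51.1% occurred in another annotated transcript, and Gm29216 matched its bases 1063 to 1545. Of those in mt-Nd4, 62.2% did, all within its first 876 bases. The share was 8.19% in mt-Nd2, 7.61% in mt-Nd5 and 1.04% in mt-Rnr2. It was 0 in mt-Rnr1, mt-Tl1, mt-Nd1, mt-Nd6 and mt-Cytb. For these 5 members, near matches and sequence outside annotated transcripts were not searched.

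Depth was 24154849 to 31042504 gene reads per library. The Th2 markers Cd4, Gata3, Il4, Il13 and Il5 summed to 30516 to 119708 normalised reads in the Th2 libraries and 81.7 to 512 in the CD8 libraries. Markers of the CD8 list (Cd8a, Cd8b1, Prf1, Gzmb, Tbx21, Eomes) summed to 277766 to 515025 in CD8 and 97240 to 155937 in Th2 libraries. Erythroid markers stayed between 0 and 6.80. The B cell genes Ms4a1, Cd79a and Cd79b, all 3 above 0, summed to 450.1 to 568 in Th2 and 128 to 221 in CD8 libraries. Bulk libraries cannot tell fewer mitochondria or cells from less RNA in each. Values are reads divided by 1 size factor per library, so every difference is relative to the rest of the library. Because the labels give 1 library per condition, matched libraries stood in for replicates and the p-values measure the spread between these libraries only.

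The levels spanned a wide range per kilobase of gene length. Per the labels the RNA was selected with oligo-dT beads, and how far capture on them sets these levels was not tested. In the 4 untreated libraries mt-Co1, the catalytic subunit of complex IV, had the highest median at 86927 normalised reads per kilobase (range 81614 to 91349). mt-Nd1, a subunit of complex I, followed at 80679 (61062 to 103002), and these neighbours in the order overlapped. mt-Cytb, the cytochrome b of complex III, stood at 46978 (43139 to 52036) and mt-Nd2, another complex I subunit, at 31022 (27319 to 36074), each apart from the members above and below it. The next 4 overlapped one another: mt-Rnr1 at 20798, mt-Nd5 at 16725, mt-Rnr2 at 16530 and mt-Nd4 at 16164. Far below lay mt-Nd6, the only mRNA on the minus strand, at 1839 (1386 to 4656), and mt-Tl1 at 1078 (815 to 1991). With the same values divided only by the number of words of 50 bases found in no other annotated transcript, which is a smaller divisor and no recount of reads, mt-Nd4 moved from 16164 to 44370 per kilobase and from rank 8 to rank 4 of the 10, while mt-Co1 went to 183724 and kept rank 1. This alternative was chosen after seeing the data.

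**Figure D1:**
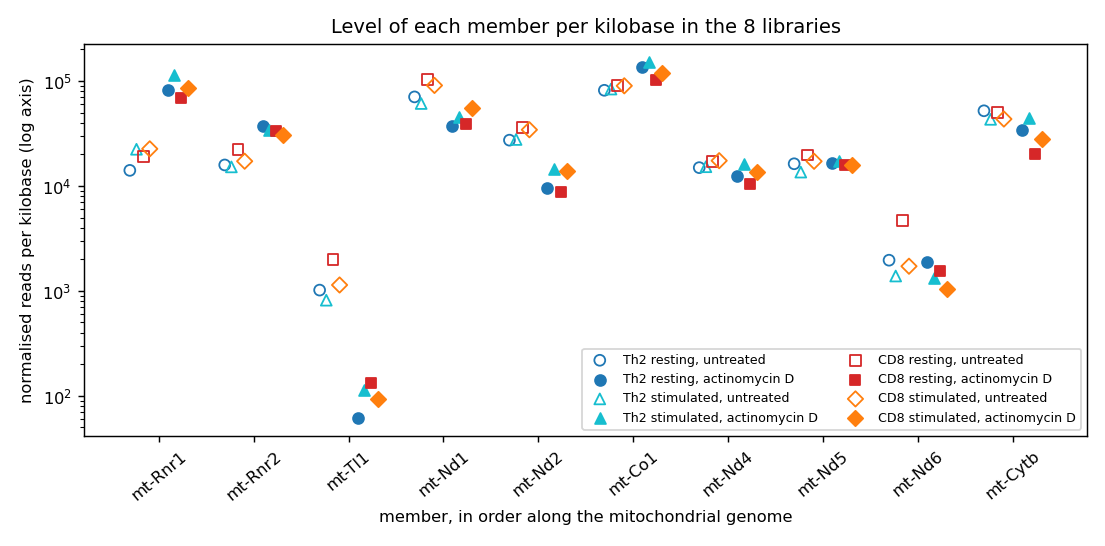
Normalised reads per kilobase of gene length (log axis) for the 10 members with a mean of at least 50, in their order along the mitochondrial genome. Open symbols are the 4 untreated libraries and filled symbols the 4 with actinomycin D, 1 point per library. The filled points lie above the open ones for mt-Rnr1, mt-Rnr2 and mt-Co1 and below them for mt-Tl1, mt-Nd1 and mt-Nd2.

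The order changed with actinomycin D. mt-Co1 remained first at a median of 127132 normalised reads per kilobase, and mt-Rnr1 came second at 83253 (69535 to 115222), a range that overlapped that of mt-Co1. mt-Nd1 followed at 42463, mt-Rnr2 at 33910 and mt-Cytb at 30969, all 3 overlapping in range. mt-Nd5, mt-Nd4 and mt-Nd2 stood at 16262, 13008 and 11716, and mt-Nd6 and mt-Tl1 closed the order at 1424 and 103.

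The comparison of treated with untreated libraries asked which transcripts outlast the block of RNA synthesis, among RNA captured on oligo-dT beads. Libraries were paired by cell type and state, treated against untreated, and 38.7% of the 10972 genes tested passed (16.8% higher and 21.9% lower, limma, adjusted p under 0.05). The split depended on the scale. In the main comparison 1842 genes were higher and 2403 lower, after quantile normalisation 2597 and 2012, and with scaling to the summed cytosolic ribosomal protein genes, which lowered the median of all genes by 0.64 on the log2 scale, 43 and 4522. Of the 10 members, 6 passed, and they went opposite ways: both rRNAs and mt-Co1 rose, whereas mt-Tl1, mt-Nd1 and mt-Nd2 fell. On the ribosomal protein scale 1 was higher (mt-Rnr1) and 6 lower, with mt-Nd4, mt-Nd6 and mt-Cytb added to those that fell, and mt-Rnr2 and mt-Co1 no longer passed. With a term for the stimulation interaction mt-Nd4 and mt-Cytb also passed as lower. In the main comparison the same 3 members had all 4 treated libraries above all 4 untreated ones (13.8% of all genes) and the same 3 had them all below (17.8% of all genes). The median of the 10 log2 differences was −0.46, against 0.00 for all genes tested.

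The 12S rRNA, mt-Rnr1 (MT, 70 to 1024), stood at 13445, 21364, 18361 and 21561 normalised reads in the untreated Th2 resting, Th2 stimulated, CD8 resting and CD8 stimulated libraries. With actinomycin D the same conditions gave 77744, 110037, 66406 and 81269. Every treated library was above every untreated one, and the rise was 4.49-fold (log2 2.17 ± 0.15 SE, adjusted p = 0.00137 by limma). The 16S rRNA, mt-Rnr2 (MT, 1094 to 2675), went from 25079, 24037, 35190 and 27222 to 59335, 54101, 53191 and 48540. It rose 1.95-fold (log2 0.96 ± 0.15 SE, adjusted p = 0.00560 by limma), again without overlap. On the ribosomal protein scale mt-Rnr2 gave a log2 difference of 0.32 and did not pass, while mt-Rnr1 did.

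The rRNAs did not rise by the same amount. The ratio of 12S to 16S values was 0.54, 0.89, 0.52 and 0.79 in the untreated libraries and 1.31, 2.03, 1.25 and 1.67 with actinomycin D. It was 2.31-fold higher with the drug (log2 1.21 ± 0.09 SD, n = 4 pairs), in 4 of 4 pairs, with p = 0.125 in a two-sided exact sign-flip permutation test, the smallest p that 4 pairs allow. Since both genes come from one precursor and are compared within a library, this ratio does not depend on the scaling between libraries. Capture of either rRNA on the oligo-dT beads was not tested. Whether rRNA was removed when the libraries were made is not stated in the study's methods, and its part was not tested.

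The leucine tRNA mt-Tl1 (MT, 2676 to 2750), which lies between the 16S rRNA and mt-Nd1 and whose sequence is shown in capitals above, had low counts and the widest drop. Its values were 76.3, 61.2, 149 and 85.3 normalised reads without and 4.60, 8.56, 9.84 and 6.95 with actinomycin D. These rest on 98, 54, 144 and 72 reads in the untreated libraries and on 5, 9 and 10 reads in the treated Th2 resting, Th2 stimulated and CD8 resting libraries. It fell by 3.43 on the log2 scale (SE 0.33, adjusted p = 0.00198 by limma), to 9.28% of the untreated level, on the log2(value + 1) scale that understates the change of low genes. Its mean of 50.3 normalised reads reached the minimum of 50 only through the untreated libraries. The minimum itself thus favoured a drop in this tRNA, and the adjusted p takes no account of that.

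The complex I subunits differed in their response. mt-Nd2 (MT, 3914 to 4951) went from 28357, 28786, 37445 and 35617 to 9890, 14983, 9166 and 14433 normalised reads. It fell to 36.6% of the untreated level (log2 −1.45 ± 0.19 SE, adjusted p = 0.00352 by limma). mt-Nd1 (MT, 2751 to 3707) went from 67555, 58436, 98573 and 86865 to 35451, 43771, 37502 and 52583. It fell to 54.9% (log2 −0.87 ± 0.17 SE, adjusted p = 0.0126 by limma), with the treated libraries all below the untreated ones. By contrast mt-Nd5 (MT, 11742 to 13565) held 24722 to 35973 normalised reads in the untreated and 28614 to 31629 in the treated libraries, a log2 difference of −0.01 ± 0.14 SE (adjusted p = 0.945 by limma). mt-Nd4 (MT, 10167 to 11544) ranged over 20596 to 23992 and 14284 to 22448, with a log2 difference of −0.31 ± 0.16 SE (adjusted p = 0.152 by limma).

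mt-Nd6 (MT, 13552 to 14070, minus strand) did not pass either, and 1 library set its range. Its values were 1018, 719, 2417 and 891 normalised reads without and 977, 681, 797 and 537 with the drug (log2 −0.62 ± 0.28 SE, adjusted p = 0.125 by limma). The untreated CD8 resting library stood above the other 7, and the log2 difference was −1.60 in that pair against −0.06 in the Th2 resting pair. mt-Nd6 overlaps mt-Nd5 on the other strand by 14 bases, and the strand setting of the counting is not stated, so RNA from the opposite strand cannot be told apart from it.

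mt-Co1 (MT, 5328 to 6872) was the only one of the 7 mRNAs with values that rose, and the other 6 mRNAs, at 0 in every library, could not be compared. It went from 126093, 129515, 141134 and 139090 to 208132, 235592, 159184 and 184706 normalised reads, 1.46-fold (log2 0.54 ± 0.15 SE, adjusted p = 0.0313 by limma), and the groups did not overlap. This call was the least firm of the 6. It was lost with edgeR and with DESeq2 on 7 libraries, without a filter on low values, after quantile normalisation (log2 0.00) and without any of 3 pairs, and the direction turned with scaling to the ribosomal protein genes (log2 −0.10). mt-Cytb (MT, 14145 to 15288) went from 59529, 49351, 57814 and 49672 to 38990, 51272, 23151 and 31867, which was below in 3 of 4 pairs and did not pass (log2 −0.63 ± 0.22 SE, adjusted p = 0.0622 by limma). Its Th2 stimulated pair was level (log2 0.06), and without that pair it passed.

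**Figure D2:**
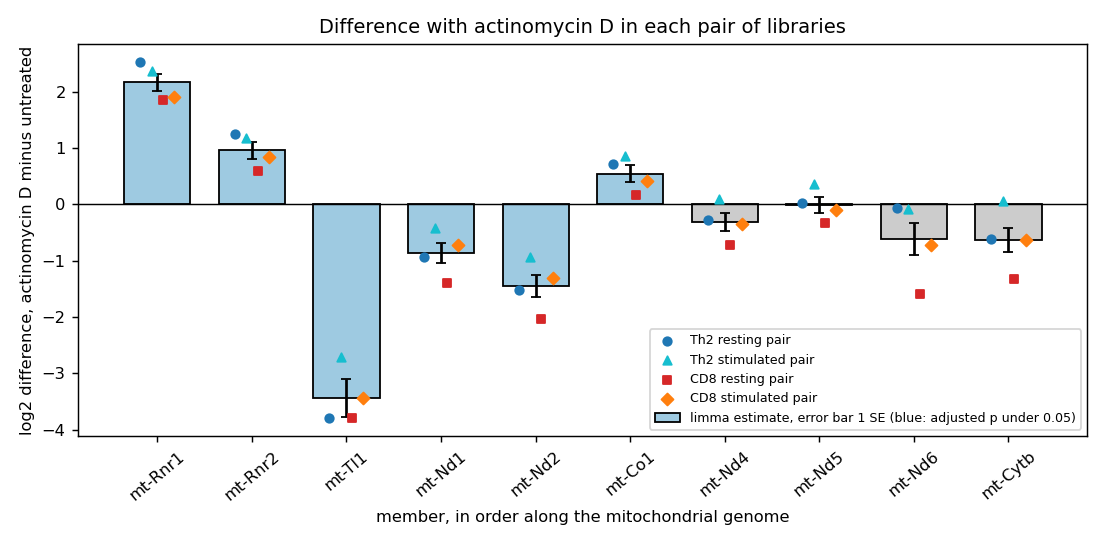
Log2 difference between actinomycin D and untreated libraries for the 10 members in their order along the mitochondrial genome. Bars are the limma estimate with 1 SE, blue where the adjusted p was under 0.05 and grey otherwise, and each point is 1 pair of libraries. mt-Rnr1, mt-Rnr2 and mt-Co1 lie above 0 in 4 of 4 pairs and mt-Tl1, mt-Nd1 and mt-Nd2 below 0 in 4 of 4 pairs.

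Neighbours on the genome did not all move together. The rRNAs mt-Rnr1 (2.17) and mt-Rnr2 (0.96), with only mt-Tv between them, both rose. The estimates of mt-Nd4, mt-Nd5, mt-Nd6 and mt-Cytb were all negative, and none of them passed. From mt-Rnr2 (0.96) to mt-Tl1 (−3.43), adjacent genes with 0 bases between them, the log2 difference changed sign. mt-Nd1 (−0.87), also 0 bases from mt-Tl1, fell as mt-Tl1 did. mt-Nd2 (−1.45) and mt-Co1 (0.54), which have only 5 tRNAs between them, also differed in sign. The CD8 resting pair gave the lowest difference of the 4 pairs for all 10 members, and the Th2 stimulated pair gave the highest for 7 of them.

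The total and the make-up of mitochondrial RNA were compared separately, and both lack the 6 mRNAs at 0. All members together held 1.25 to 1.76% of the library without and 1.53 to 2.12% with actinomycin D, higher in 3 of 4 pairs (log2 0.28 ± 0.39 SD, n = 4 pairs, exact sign-flip permutation p = 0.25, two-sided). The mRNAs together held 1.09 to 1.55% and 1.07 to 1.51% (log2 −0.04 ± 0.41 SD, higher in 2 of 4 pairs, exact permutation p = 0.75). The rRNAs went from 0.159 to 0.209% of the library to 0.467 to 0.618%, 3.04-fold (log2 1.60 ± 0.34 SD, higher in 4 of 4 pairs, exact permutation p = 0.125, the smallest possible). Within the summed value of the members, the rRNAs accounted for 10.4 to 12.7% in untreated and 28.1 to 30.5% in treated libraries.

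Taken as a share of the members' sum, which needs no scaling between libraries, mt-Co1 held 31.3 to 36.2% in untreated libraries and up to 43.5% in treated ones, a 1.23-fold higher share with all 4 pairs higher. The share of mt-Nd1 was 16.3 to 21.9% and then 7.42 to 11.4%. mt-Nd2 had 7.63 to 8.55% and then 2.07 to 3.12%. The share of mt-Cytb in treated libraries, 5.90 to 9.08%, was 0.547 times the untreated one, and mt-Nd4 had 5.22 to 5.87% and then 3.58 to 4.06%. On this scale mt-Tl1 and all 6 other mRNAs with values, mt-Nd5 and mt-Nd6 included, had a lower share in 4 of 4 pairs. Shares sum to 100%, so the larger rRNA part by itself lowers the share of a member that stayed level, and the normalised value of mt-Nd5 was higher in 2 of 4 pairs. The tRNAs under the minimum of 50 summed to 70.2 to 330 normalised reads untreated and 60.6 to 117 treated, lower in 4 of 4 pairs.

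**Figure D3:**
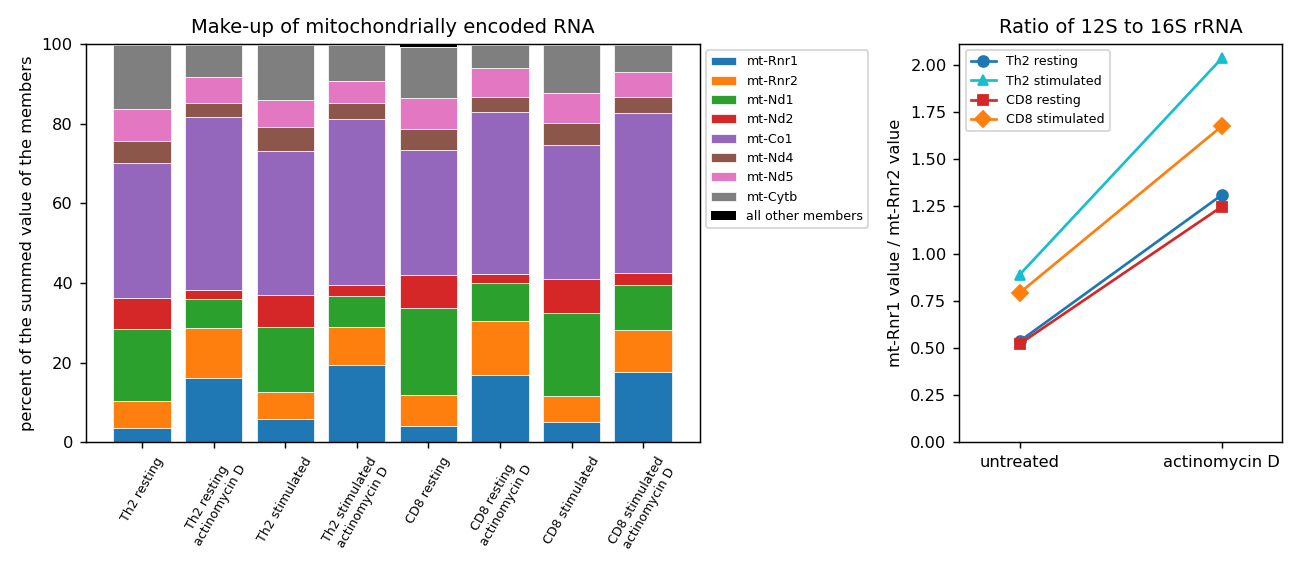
Left, stacked bars of each member's percent of the summed value of the 37 members in each library, untreated and actinomycin D side by side, with mt-Tl1, mt-Nd6 and all members under the minimum drawn as other members. Right, the value of mt-Rnr1 divided by that of mt-Rnr2, with a line joining the untreated and treated library of a condition. The ratio is 0.52 to 0.89 in untreated and 1.25 to 2.03 in treated libraries, and the rRNA part of the bar grows from 10.4 to 12.7% to 28.1 to 30.5%.

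Several measures moved together with the drug. The myeloid markers Lyz2, Csf1r, Itgam and Cd68 summed to 105 to 164 normalised reads in untreated and 265 to 462 in treated libraries. All 4 of them were above 0 in at least 1 library. Cd68 alone held 73.2 to 86.1 untreated and 189 to 414 treated, whereas Csf1r held 2.07 to 10.7 and 0 to 9.20. The T cell markers Cd3e, Cd3g, Cd3d and Cd5 summed to 30474 to 42692 untreated and 40413 to 63328 treated, ranges that overlap. The part of these markers in the differences was not tested. Another lysis is described in the study's methods for drug-treated cells, which were also collected for RNA-seq. Which lysis these libraries had is not stated, so drug and preparation cannot be told apart.

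The nuclear genes that make, cut and stabilise mitochondrial RNA were called at shares near the 38.7% of all genes. Of 17 tested genes for transcription and replication of mitochondrial DNA, 1 rose and 6 fell (41.2% called, median log2 −0.47). Tefm, the transcription elongation factor, fell (log2 −2.25 ± 0.19 SE, adjusted p = 0.00166 by limma), as did Mterf4 (−1.55), which acts in ribosome assembly. Tfam, the packaging and activating protein of mitochondrial DNA, fell as well (−0.60, adjusted p = 0.0179), and Primpol, a primase and polymerase, rose (1.23). Polrmt itself did not pass (log2 −0.69 ± 0.36 SE, adjusted p = 0.170). Of 24 genes for RNA processing and stability, none rose and 10 fell (41.7% called, median log2 −0.43), where 21.9% of all genes fell. On the ribosomal protein scale 12 of the 17 and 15 of the 24 were lower and none higher. Trmt10c, a subunit of the RNase P that cuts tRNA 5′ ends, fell by a log2 difference of −1.91. The next widest were Ddx28 (−1.80), a helicase of ribosome assembly, Fastkd5 (−1.75), which acts on junctions without a tRNA, and Pde12 (−1.57), which removes poly(A). Lrpprc, which binds and stabilises mitochondrial mRNAs, gave 0.12 ± 0.12 SE (adjusted p = 0.451).

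RNA modification genes fell in 4 of 19 cases and rose in none (21.1% called, near the 21.9% of all genes that fell, median log2 −0.24). They were Rnmtl1 (−3.36) and Ftsj2 (−3.23), methyltransferases of the 16S rRNA now called Mrm3 and Mrm2, Trmt5 (−1.58), a tRNA methyltransferase, and Mettl17 (−1.04), a factor of the small ribosomal subunit. In treated libraries Rnmtl1 held 22.8 to 38.7 and Ftsj2 3.81 to 26.8 normalised reads. Both reached the minimum mean of 50 only through the untreated libraries, which favoured a drop. Of 13 translation factors, 1 rose (Gfm2, log2 0.75) and 2 fell (Mtif3, −1.95, an initiation factor, and Mtrf1l, −1.33, a release factor), with 23.1% called and a median of 0.01. Of 75 mitochondrial ribosomal proteins 9 were higher and 13 lower (29.3% called, against 38.7% of all genes, median log2 0.09). These counts moved with the method, to 19 higher and 10 lower after quantile normalisation, 1 and 9 with edgeR and 0 and 28 on the ribosomal protein scale. The widest differences were drops of Mrps31 (−1.64), Mrps2 (−1.28), Mrpl46 (−1.23) and Mrpl50 (−1.06).

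Nuclear-encoded subunits of the respiratory chain and ATP synthase had a positive median. Of 78 tested, 36 rose and 2 fell (48.7% called, median log2 0.53), where 16.8% of all genes rose and 21.9% fell. After scaling to the ribosomal protein genes, however, none rose and 4 fell (median −0.11, against −0.63 for all genes). Under edgeR on 7 libraries 6 rose and 1 fell. Examples were Cox6b2 (log2 1.26 ± 0.17 SE), Atp5s (0.88 ± 0.24 SE) and Atp5e (0.75 ± 0.19 SE), whereas Cox7c fell by 2.07. Cox7c held 27.6 to 44.7 normalised reads in treated libraries and reached the minimum mean of 50 only through the untreated ones. Of the transcripts made by polymerases I and III, only Rn7sk, the RNA that holds the elongation factor P-TEFb, was tested, and it rose by 2.95 (SE 0.22, adjusted p = 0.00137 by limma).

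Stimulation was compared with rest in all 8 libraries and in the 4 untreated ones alone. None of the 10 members passed in either comparison, where 0.118% and 11.3% of all genes did (limma, adjusted p under 0.05), the latter split into 6.59% higher and 4.69% lower. At an unadjusted p under 0.05, 2 members passed in each. These were mt-Rnr1 and mt-Nd6 in both. With edgeR the counts in the full and in the untreated comparison were 0 adjusted and 1 unadjusted each, and with DESeq2 0 and 1 adjusted and 2 and 1 unadjusted. mt-Rnr1 was higher after stimulation in 4 of 4 pairs, by 0.67 in untreated Th2, 0.23 in untreated CD8, 0.50 in treated Th2 and 0.29 in treated CD8 cells (log2 0.42 ± 0.15 SE, adjusted p = 0.314 by limma). mt-Nd6 was lower in 4 of 4 pairs (log2 −0.76 ± 0.27 SE, adjusted p = 0.314 by limma), most in untreated CD8 cells, from 2417 to 891 normalised reads. In untreated cells it gave −0.97 ± 0.27 SE (adjusted p = 0.0849 by limma), and it passed there with DESeq2 and with scaling to the total without mitochondrial RNAs. mt-Rnr2 was lower in 4 of 4 pairs, by 0.06 to 0.37, so that the ratio of 12S to 16S rose with stimulation by 0.73, 0.60, 0.63 and 0.42 on the log2 scale in Th2, CD8, treated Th2 and treated CD8 cells. mt-Nd4 was also higher in 4 of 4 pairs, by 0.03 in both untreated and 0.39 in both treated pairs. Beside these counts, 14.8% of all genes were higher and 11.1% lower in 4 of 4 pairs.

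Apart from mt-Nd6, the mRNAs differed by at most 0.24 on the log2 scale in untreated cells. The log2 difference between stimulated and resting libraries was −0.03 for mt-Nd2, 0.01 for mt-Co1 and 0.03 for mt-Nd4, each with an SE of 0.11. mt-Nd1, mt-Nd5 and mt-Cytb gave −0.20, −0.23 and −0.24, with both pairs below 0 for each. Scaling to the ribosomal protein genes, which shifted the median of all genes by −0.41, made mt-Rnr2, mt-Nd1, mt-Nd5, mt-Nd6 and mt-Cytb pass as lower. On that scale 541 of all genes were higher and 3264 lower, against 723 and 515 in the main comparison, 618 and 1277 on the total without mitochondrial RNAs and 975 and 378 on the mitochondrial mRNA scale. The cytosolic ribosomal protein genes themselves rose in 25 of 71 cases (35.2%, median log2 0.60) and fell in none. Of the modification genes 2 of 19 rose, Pus1 (log2 1.26), a pseudouridine synthase, and Wbscr16 (1.17), now called Rcc1l, and of the respiratory chain subunits 2 of 78, Uqcr11 (0.90) and Atp5d (0.85). None of the 17 transcription and replication genes, 24 processing genes, 13 translation factors or 75 mitochondrial ribosomal proteins passed, whereas 6, 3, 5 and 6 of them were lower on the ribosomal protein scale. Polrmt gave 0.77 ± 0.23 SE (adjusted p = 0.0968 by limma), Tfam −0.19 and Lrpprc 0.20.

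A test of the difference asked whether stimulation acted alike without and with actinomycin D. None of the 10 members passed, where 14.5% of all genes did, 7.06% higher and 7.44% lower (limma interaction, adjusted p under 0.05), and 2 had an unadjusted p under 0.05 (0 adjusted and 3 unadjusted with edgeR, 0 and 2 with DESeq2). mt-Nd2 was level in untreated cells (0.02 and −0.07) and higher after stimulation in treated cells (0.60 and 0.66), a difference of 0.65 ± 0.23 SE (adjusted p = 0.0921). mt-Nd1 went from −0.21 and −0.18 to 0.30 and 0.49, a difference of 0.59 ± 0.22 SE (adjusted p = 0.107). mt-Cytb went from −0.27 and −0.22 to 0.40 and 0.46 (difference 0.67 ± 0.31 SE, adjusted p = 0.167). The median over the 10 was 0.40 against −0.01 for all genes. These values moved with the scale: 2 members passed with scaling to the total without mitochondrial RNAs, 5 after quantile normalisation and 7 with scaling to the ribosomal protein genes, all in the positive direction, and none with the mitochondrial mRNAs as the scale. Over all genes 775 were higher and 816 lower in the main comparison, against 1352 and 507 on the total without mitochondrial RNAs, 4758 and 283 on the ribosomal protein scale and 112 and 743 on the mRNA scale.

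CD8 cells were set against Th2 cells at matched state and treatment. None of the 10 members passed, where 21.5% of all genes did, 9.97% higher and 11.5% lower (limma, adjusted p under 0.05), and none had an unadjusted p under 0.05. With edgeR and with DESeq2 the counts were also 0, adjusted or not. No member had all CD8 libraries on one side of all Th2 libraries, where 7.36% of all genes had them above and 8.6% below. mt-Nd1 was higher in CD8 cells in 4 of 4 pairs, by 0.08 to 0.57 (log2 0.37 ± 0.16 SE, adjusted p = 0.150), and passed when the matched conditions were fitted as a block. mt-Tl1 had the highest estimate (log2 0.53 ± 0.34 SE, adjusted p = 0.313 by limma) and passed as higher in CD8 cells after quantile normalisation. mt-Cytb was the lowest (log2 −0.37 ± 0.20 SE, adjusted p = 0.238). As a share of the members' sum, mt-Nd1 (by 0.27 to 0.55 on the log2 scale) and mt-Nd2 (by 0.09 to 0.24) were higher in CD8 cells in 4 of 4 pairs, whereas mt-Cytb and mt-Co1 were lower in 4 of 4. For 7 of the 10 members CD8 cells lay above Th2 cells in both untreated pairs and below them in both treated pairs, as did 6.12% of all genes, and the difference itself was not tested. For comparison, 6 of 78 respiratory chain subunits and 7 of 75 mitochondrial ribosomal proteins were higher in CD8 cells (7.69% and 9.33%, against 9.97% of all genes) and none lower. These became 2 and 0 with edgeR, 1 and 0 on the ribosomal protein scale and 6 and 15 after quantile normalisation. The summed B cell genes given above, higher in every Th2 library than in any CD8 library, moved with this comparison, and their part was not tested.

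**Figure D4:**
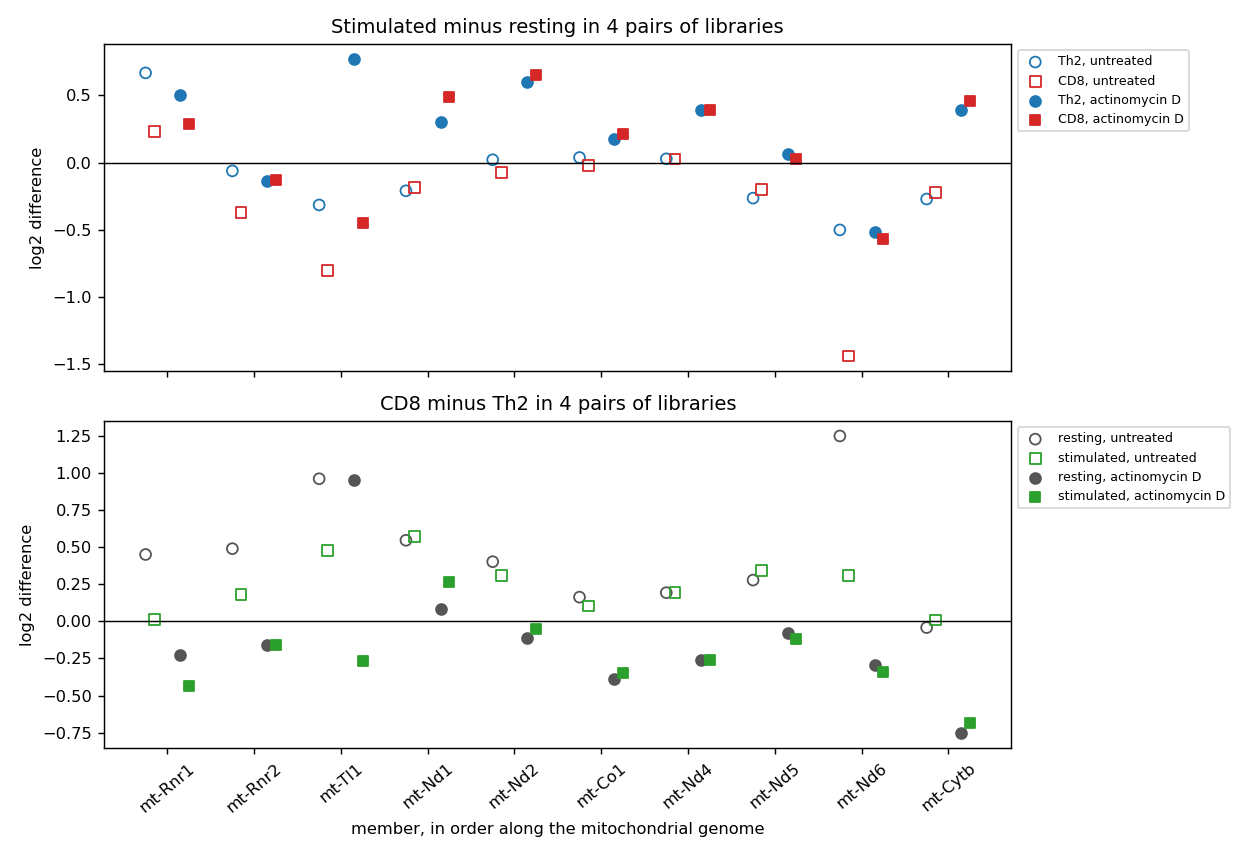
Log2 differences for the 10 members in 4 pairs of libraries each, stimulated minus resting (top) and CD8 minus Th2 (bottom). Open symbols are untreated and filled symbols actinomycin D pairs. In the top panel mt-Nd1 and mt-Cytb lie below 0 without and above 0 with the drug, and in the bottom panel mt-Co1, mt-Nd4 and mt-Nd5 lie above 0 without and below 0 with it.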

How the data were processed

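RNA-seq of 8 mouse T cell libraries was used. Per the labels, oligo-dT beads selected poly(A) RNA ahead of a stranded kit. The study's methods name a TruSeq Stranded Total RNA kit and do not say whether rRNA was removed with it. The authors aligned reads with STAR to mm10. The deposited signal values are whole reads per gene over a size factor of each library, as the values show (100% were whole multiples of 1 step within 0.01 read), although FPKM is described. No source used here names the counter, annotation or strand setting. A second table repeats these columns beside the authors' own fold changes, which were not used. The deposited GCLiPP peak score (Bowtie2, pooled experiments) was used only to count peaks.

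limma 3.58.1 (trend) was run on log2(value + 1) for genes with a mean of at least 50, with Benjamini-Hochberg adjustment over all 10972 genes and calls at 0.05. The actinomycin comparison had the 4 conditions as a block, and the stimulation and cell type comparisons had additive terms. Matched libraries share no replicate numbers beyond 1 per condition, so the pairs come from the conditions. edgeR 4.0.16 and DESeq2 1.42.0 were run on reads recovered from 7 libraries. The CD8 stimulated library with actinomycin D was left out there because its step of 0.993 per read lies near 1. Its values were still whole multiples of that step, so its reads could have been recovered too. In the actinomycin comparison limma without the CD8 stimulated pair called 2216 genes, and edgeR called 2186. The effects of the method and of the missing library were not separated. On simulated data limma recovered 100% of 107 genes changed by 1 on the log2 scale in the actinomycin comparison, with 7 false calls. In the interaction it recovered 79.8% of 99, with 14 false calls. The simulated counts were independent and had no pair or library effects, so they do not measure recovery in these data. Sequences and positions came from GENCODE M21, and shared words of 50 bases were searched in its transcripts with Python 3.11.15 and Biopython 1.88. Members and gene lists were chosen with earlier results of these data known. The genes named with values were the 10 members at or above the minimum, Polrmt, Tfam and Lrpprc, and of each nuclear list at most the 4 widest calls per comparison (actinomycin D, or stimulation in untreated cells). One marker gene of the lists is not reported here. Intervals and floors of counts cover counting error only.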

Additional observations from a re-analysis of the deposited data

Results flagged for a closer look

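For 7 of the 10 members CD8 cells lay above Th2 cells in both untreated pairs and below them in both pairs with actinomycin D, where 6.12% of all genes showed the same signs. For mt-Rnr1 the untreated stimulated pair differed by only 0.013. This difference between treatments was not tested, and each value is the mean log2 difference (CD8 minus Th2) of the 2 untreated pairs minus that of the 2 treated pairs. It was 0.56 for mt-Rnr1, 0.49 for mt-Rnr2, 0.44 for mt-Nd2, 0.50 for mt-Co1, 0.45 for mt-Nd4, 0.41 for mt-Nd5 and 1.10 for mt-Nd6. In mt-Nd6 the untreated resting pair alone gave 1.25, and the untreated stimulated pair 0.31. For mt-Nd5 the same numbers read the other way: with actinomycin D both Th2 pairs lay above 0 (0.03 and 0.36) and both CD8 pairs below (−0.33 and −0.11), a difference of 0.41, and 1.76% of all genes showed these signs. The 7 members are measured in the same libraries and on the same scale, so they are not independent of each other.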

How the results depend on the processing

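Over 870 recomputed member values, 774 kept direction and side of the threshold, 30 newly passed, 8 no longer passed and 58 changed sign, none of these with a call on both sides. mt-Rnr1, mt-Tl1, mt-Nd1 and mt-Nd2 kept their actinomycin D call under every alternative run. For mt-Tl1 all these runs share its choice by a minimum that it reached only through untreated libraries. Leaving out a library of the untreated comparison left no residual degrees of freedom, so it was not run. The cause of the changes below was not tested.

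Genes called for actinomycin D (4245) became 2567 with the mitochondrial mRNAs as scale, 2186 with edgeR on 7 libraries and 6776 with a stimulation interaction. Without 1 pair they were 2216 to 4051, the lowest without the CD8 stimulated pair, whose treated library edgeR also lacked. For stimulation (13) they were 21 without a filter, 4 on the mRNA scale, 3 with edgeR, 423 with DESeq2 and 6 with the replicate block of matched conditions, and 3 to 12 without 1 library. In untreated cells (1238) they were 0 without a filter, 3805 on the ribosomal protein scale, 1895 on the total without mitochondrial RNAs and 1980 with DESeq2. For CD8 against Th2 (2358) they were 1461 on the ribosomal protein scale, 1539 on the mRNA scale and 4037 with the replicate block, and 1466 to 2484 without 1 library. For the interaction (1591) they were 940 without a filter, 5041 on the ribosomal protein scale, 855 on the mRNA scale, 321 with edgeR and 25 to 3315 without 1 library.

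Log2 values that changed sign were as follows. With actinomycin D, mt-Co1 was −0.10 on the ribosomal protein scale, and mt-Nd5 was 0.029 on the total without mitochondrial RNAs, 0.0016 with TMM, 0.060 on the mRNA scale and 0.015 with DESeq2. For stimulation over all libraries, quantile normalisation gave −0.15 for mt-Nd1 and −0.10 for mt-Cytb, and the total without mitochondrial RNAs −0.0090 for mt-Nd1, −0.0063 for mt-Co1 and −0.017 for mt-Cytb. In untreated cells, mt-Nd2 was 0.076 on the mRNA scale. There mt-Co1 and mt-Nd4 were −0.51 and −0.34 after quantile normalisation, −0.40 and −0.38 on the ribosomal protein scale, −0.20 and −0.18 on the total without mitochondrial RNAs, −0.022 and −0.0031 with TMM, −0.027 and −0.0079 with edgeR, and −0.024 and −0.0046 with DESeq2. For CD8 against Th2, mt-Rnr1 was 0.0075 and mt-Nd4 0.024 on the ribosomal protein scale, and mt-Rnr1 0.035 with edgeR and 0.060 with DESeq2. For the interaction, mt-Rnr1 was 0.086 after quantile normalisation, 0.65 on the ribosomal protein scale, 0.14 on the total without mitochondrial RNAs, 0.25 with edgeR and 0.21 with DESeq2, and the mRNA scale gave −0.28 for mt-Rnr2, −0.17 for mt-Co1 and −0.083 for mt-Nd5.

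Without 1 pair or library, the ranges that crossed 0 were −0.14 to 0.092 for mt-Nd5 with actinomycin D. For stimulation they were −0.49 to 0.00012 for mt-Tl1, −0.045 to 0.23 for mt-Nd1, −0.18 to 0.00056 for mt-Nd5 and −0.089 to 0.27 for mt-Cytb. For CD8 against Th2 they were −0.18 to 0.053 for mt-Rnr1, −0.022 to 0.16 for mt-Rnr2, −0.012 to 0.28 for mt-Nd2, −0.14 to 0.069 for mt-Nd4 and −0.077 to 0.43 for mt-Nd6. For the interaction they were −0.39 to 0.28 for mt-Rnr1, −0.18 to 0.35 for mt-Rnr2 and −0.25 to 1.10 for mt-Nd6. The log2 difference between treated and untreated libraries in the ratio of 12S to 16S was 1.18 to 1.25 without 1 pair, an alternative chosen after seeing the data.

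No further paired analysis was possible because the labels give each condition 1 library, and matched conditions are the only pairs. Depth limits mt-Tl1, with 5 to 10 reads in treated Th2 and CD8 resting libraries, and all tRNAs under the minimum.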
